A study of Saccharomyces cerevisiae with 4 samples.

Results

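The centromere regions of 10 chromosomes of budding yeast (Saccharomyces cerevisiae) were followed in Hi-C contact maps made before and after heating. In Hi-C, chromatin is crosslinked and cut, ends held near each other are ligated, and sequencing counts how often each 2 fragments were ligated. Each region was a window of 25 restriction fragments, made of a centre row of the 25 °C map and 12 rows to either side. The windows were chosen by row numbers taken from contacts in these maps, on chromosomes II, IV, V, VII, VIII, IX, X, XI, XII and XIII. They held 250 of the 4388 fragments of the map, of which 247 passed a filter on low totals. Because contacts chose the rows, the excess of contacts between the windows is given as a description and is not a finding.

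All cells were of the haploid laboratory strain BY4742, grown in YPD medium at 25 °C to mid-log phase. One aliquot was fixed in 3% formaldehyde at 25 °C. The other received an equal volume of fresh prewarmed YPD, was shaken for 15 minutes at 37 °C and was fixed at 37 °C, so medium, fixation temperature and heating cannot be told apart. There were 2 biological replicates per temperature, and the deposited matrices combine them into 1 map each. No spread between replicates could be computed and no test between temperatures was run. Every interval below is an exact 95% interval that covers counting error only.

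A yeast centromere is a short stretch of DNA on which a single kinetochore is built. For most of the cell cycle the kinetochores are tied by microtubules to the spindle pole body, the yeast counterpart of the centrosome, which sits in the nuclear envelope. The centromeres of all chromosomes are therefore held in a cluster and the arms extend away from it, an arrangement named after Rabl. In Hi-C maps of yeast this cluster is known as contacts between pericentromeric DNA of different chromosomes.

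The gene table of build R64 placed the 10 centromeres in gaps of 630 to 2541 bp between the innermost genes of the left and right arms. On chromosome II the gap lay between ECM15 (chrII, 237153 to 237467) and NTH2 (238941 to 241283), which codes for a neutral trehalase. Chromosome IV had RMD1 (chrIV, 447984 to 449276) on the left and NTH1 (450220 to 452475), the paralog of NTH2 that breaks down the stress sugar trehalose, on the right. IRC22 (chrV, 150301 to 150978) and MNN1 (153520 to 155808), a mannosyltransferase of the Golgi, bounded the widest gap. The narrowest lay between ERG26 (chrVII, 495453 to 496502), an enzyme of ergosterol synthesis, and EFM5 (497133 to 498034), a methyltransferase of translation elongation factor. RPL14B (chrVIII, 104277 to 105091), a ribosomal protein gene, and OSH7 (106055 to 107368), a lipid transfer protein gene, bounded the centromere of chromosome VIII. YIL001W (chrIX, 353940 to 355481) and SGN1 (356143 to 356895), which codes for an RNA-binding protein, did so on chromosome IX.

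Both neighbours on chromosome X serve protein and amino acid turnover: PRE3 (chrX, 435163 to 435926) is a proteasome subunit and AVT1 (436802 to 438610) a vacuolar amino acid transporter. MET14 (chrXI, 438777 to 439385), the adenylylsulfate kinase of sulfate assimilation, faced VPS1 (440608 to 442722), a dynamin-like GTPase of vacuolar sorting. DNM1 (chrXII, 147890 to 150163), the dynamin-related GTPase of mitochondrial fission, faced YLR001C (151389 to 153977). YPT7 (chrXIII, 267174 to 267800), a Rab GTPase of vacuole fusion, faced CDC5 (269019 to 271136), the polo-like kinase of mitosis. The matrices carry no coordinates, so these genes name the annotated centromere and not the fragments that were counted.

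The working description of the set as large chromosomes did not match the gene spans. By the end of the last gene, chromosomes IV, VII, XII, XIII, II, X, XI, V, VIII and IX ranked 1, 3, 4, 6, 7, 9, 10, 11, 12 and 13 of 16. Their spans ran from 438 kb for chromosome IX to 1532 kb for chromosome IV. Chromosomes XV, XVI and XIV, which ranked 2, 5 and 8, are not in the set. The arms differed as well, since the shorter arm held 29 fragments on chromosome IX and 33 on VIII but 205 on VII.

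The centre rows were also checked against the row at which each chromosome's contacts with the other centromere regions peaked, taken over 11 rows in the sum of both maps. For all 10 chromosomes this contact peak lay to the right of the rule's row. The distance was 1 row for chromosomes II, V and VIII, 3 for IV, 4 for VII, 5 for IX and X, 6 for XII, 7 for XI and 8 for XIII, at an average of 2.75 kb a row. Each contact peak still lay inside its window. The rule gives its rows in the numbering of the 25 °C map. The 37 °C map carries the same fragments 1 to 6 row numbers earlier at the centres. An alternative that read the same numbers as rows of the 37 °C map was tried after the data were seen. They then fall on fragments 0 to 3 rows left of the contact peaks, within 3 rows on all 10 chromosomes. Why the rule's rows lay left of the peaks was not tested. The values at the rule's rows below use the 25 °C numbering and so describe windows centred left of the peaks. With the alternative reading the ratios were 3.60 at 25 °C and 3.14 at 37 °C. Results are therefore given at the rule's rows and, where it matters, on the contact peaks. Since a peak found in a map raises the values around it in that map, the peaks of the other map were used as well. The 25 °C map was then centred on the 37 °C peaks and the 37 °C map on the 25 °C peaks. Their windows thus hold partly different fragments where these peaks differ. On VII the 25 °C and 37 °C peaks lay 4 and 1 rows right of the rule's row, and on IX 2 and 5 rows.

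The 25 °C map held 5920062 contacts, with a median of 2729 per fragment, and the 37 °C map held 1937970, with a median of 718. After the filter, 5209693 and 1570569 contacts joined different chromosomes. Contacts are reported as observed over expected, where the expected count of a pair of fragments is the product of 2 fragment factors fitted so that each fragment keeps its total over contacts between chromosomes. A value of 1 means as many contacts as the totals of both fragments give. Of 4282 fragments, 579 (13.5%) had a factor ratio of 37 °C over 25 °C above 2 times the median. The name raised fragments is used for them below, and 26 of them lay in the windows (10.5% of 247).

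Between the 10 windows, 84239 contacts were counted at 25 °C and 19507 at 37 °C. The observed over expected ratio was 3.48 (3.46 to 3.50) at 25 °C and 3.00 (2.95 to 3.04) at 37 °C. On the contact peaks of the other map it was 3.56 and 3.21. In both maps each window spent more of its contacts on the other 9 windows than its total gave.

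The share of a window's contacts with other chromosomes that fell in the other 9 windows ran from 18.2% (17.9 to 18.5) on chromosome VIII to 27.4% (27.1 to 27.7) on chromosome II at 25 °C. At 37 °C it ran from 16.2% (15.6 to 16.7) to 22.0% (21.4 to 22.5), on the same chromosomes. The totals gave an expected share of 6.54% to 6.94% at 25 °C and 6.16% to 6.55% at 37 °C. These shares rested on 64701 to 77086 contacts per window at 25 °C and 16950 to 25797 at 37 °C.

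Chromosome II had the highest ratio with the other windows in both maps, at 4.09 (4.03 to 4.15) at 25 °C and 3.48 (3.39 to 3.58) at 37 °C. Chromosome XI followed at 3.88 (3.82 to 3.93) and 3.33 (3.23 to 3.44). Chromosomes XII and IV stood at 3.71 and 3.64 at 25 °C, with intervals that overlapped, and at 3.01 and 3.10 at 37 °C. A middle group was formed at 25 °C by VII (3.50), IX (3.44) and X (3.43), whose intervals overlapped. At 37 °C these stood at 2.91, 2.99 and 2.78.

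Chromosomes XIII, V and VIII were lowest at 25 °C, while at 37 °C X stood below XIII and VII. The ratio was 3.18 (3.13 to 3.24) on XIII and 3.08 (3.03 to 3.13) on V at 25 °C, against 2.94 (2.84 to 3.04) and 2.73 (2.63 to 2.83) at 37 °C. The window of chromosome VIII was lowest in both maps, at 2.78 (2.73 to 2.83) and 2.57 (2.48 to 2.67). On contact peaks, chromosome XIII stood at 3.50 in place of 3.18 at 25 °C, while V and VIII were still lowest at 3.17 and 2.87. Leaving out each chromosome in turn moved the ratio over all remaining pairs between 3.32 and 3.65 at 25 °C and between 2.86 and 3.08 at 37 °C.

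The length of the shorter arm had a Pearson correlation of 0.36 (Spearman 0.40) with the ratio at 25 °C over 10 windows of the same map, which share their partners. On contact peaks it was 0.46 (Spearman 0.54). At 37 °C the correlation was 0.23 (Spearman 0.26), and 0.33 (Spearman 0.41) on contact peaks. Chromosome XII, with 54 fragments in its shorter arm like chromosome V, stood at 3.71 against 3.08 for V at 25 °C. Pairs were also grouped by whether they held chromosomes V, VIII or IX, a grouping made after the values were seen that leaves out XII. The median ratio was 3.86 at 25 °C over 21 pairs with none of them, 3.00 over 21 pairs with 1 of them and 2.90 over the 3 pairs among them. At 37 °C these medians were 3.08, 2.73 and 2.68.

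All 45 pairs of windows had a ratio of 2 or more in both maps. Among 12862 pairs of windows of the same length tiled over different chromosomes, 2.57% reached 2 at 25 °C and 1.91% at 37 °C. The rule used these contacts, so nothing is read from the difference. Of the 330 tiled pairs at 2 or more at 25 °C, 249 had both windows within 12 rows of a contact peak.

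**Figure D1:**
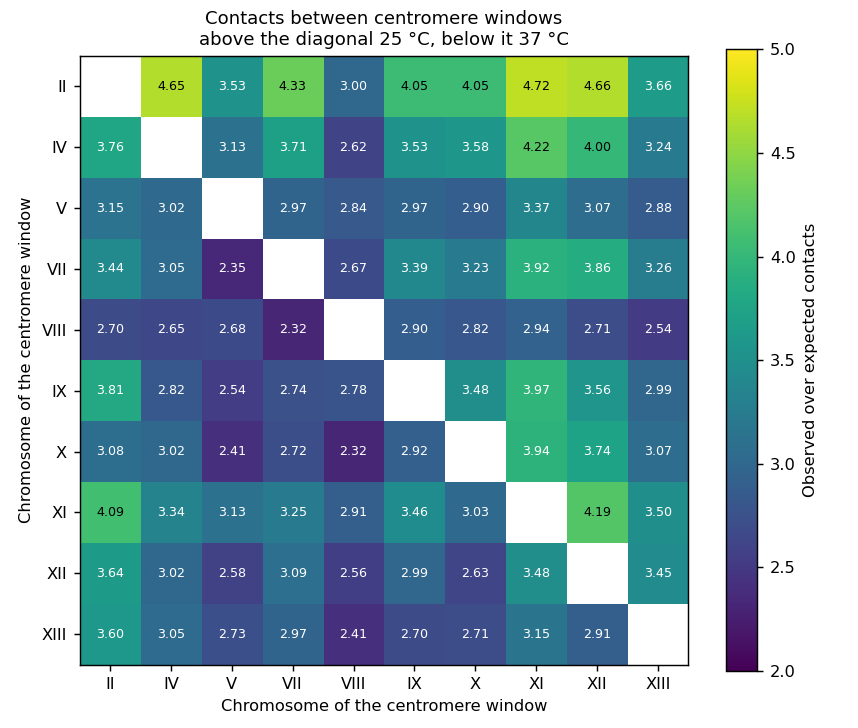
Observed over expected contacts for each of the 45 pairs of centromere windows, as colour and number, with the 25 °C map above the diagonal and the 37 °C map below it; both axes list the chromosomes. Rows and columns of chromosomes II and XI are bright and those of V and VIII dark in both maps, with values from 2.54 to 4.72 at 25 °C and 2.32 to 4.09 at 37 °C.

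The pair ratios ran from 2.54 to 4.72 at 25 °C, with a median of 3.45 and an SD over pairs of 0.58. At 37 °C they ran from 2.32 to 4.09, with a median of 2.97 and an SD of 0.42. A pair held 1287 to 2898 contacts at 25 °C and 239 to 713 at 37 °C.

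Chromosome II took part in the 4 highest pairs at 25 °C. II with XI stood at 4.72 (4.54 to 4.90, 2596 contacts), II with XII at 4.66, II with IV at 4.65 and II with VII at 4.33. IV with XI came next at 4.22 (4.06 to 4.39). The intervals of the first 3 overlapped one another. At 37 °C the highest pair was again II with XI, at 4.09 (3.77 to 4.43, 610 contacts). It was followed by II with IX at 3.81, II with IV at 3.76, II with XII at 3.64 and II with XIII at 3.60, whose intervals overlapped.

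Chromosome VIII took part in all of the 5 lowest pairs at 25 °C. They were VIII with XIII at 2.54 (2.40 to 2.68, 1306 contacts), IV with VIII at 2.62, VII with VIII at 2.67, VIII with XII at 2.71 and VIII with X at 2.82. The lowest at 37 °C were VIII with X at 2.32 (2.07 to 2.59, 310 contacts), VII with VIII at 2.32, V with VII at 2.35, VIII with XIII at 2.41 and V with X at 2.41. Their intervals overlapped, so these 5 have no order beyond counting error.

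Pairs kept much of their rank between the maps. The ratios at 25 °C and 37 °C had a Pearson correlation of 0.87 (Spearman 0.86) over 45 pairs, which share windows, fragments and their sequence. A fit with 1 value per chromosome, added for the 2 partners of a pair on the log2 scale, covered 92.2% of the variance over pairs at 25 °C and 84.8% at 37 °C. The residual SD of that fit was 0.07 and 0.09. V with VIII lay farthest above its fitted value in both maps, by 0.25 at 25 °C and 0.20 at 37 °C on the log2 scale. On contact peaks the same pair again lay farthest above, by 0.25 and 0.23. The pair itself was not high, with a ratio of 2.84 at 25 °C and 2.68 at 37 °C.

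Along each chromosome, contacts with the other 9 windows were highest inside the window and lower on both sides of it. Summed over 5 rows, the highest value of a chromosome at 25 °C lay between 4.35 on VIII and 5.11 on XI, a narrower range than that of the whole windows. At 37 °C it lay between 4.17 on IX and 4.91 on XI. Chromosomes differed more in how far along the chromosome the high level reached.

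**Figure D2:**
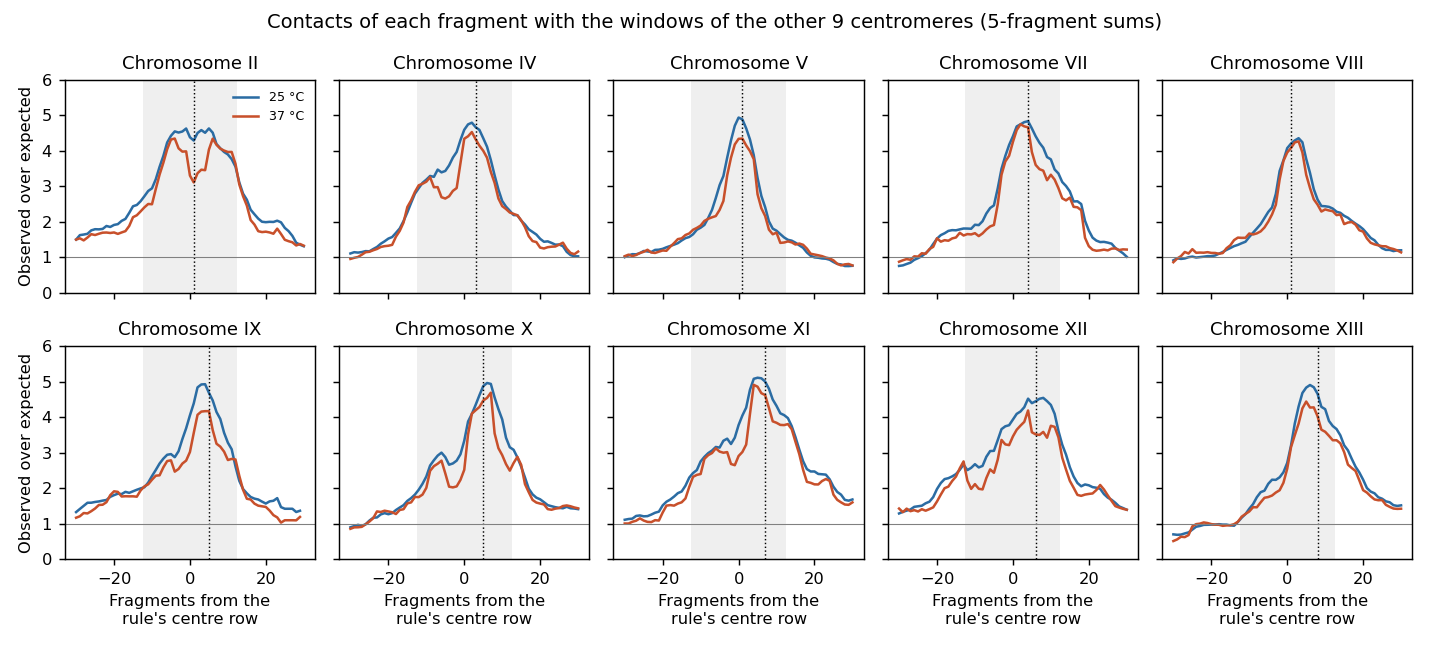
Observed over expected contacts of the fragments of each chromosome with the windows of the other 9 centromeres, summed over 5 fragments, against the distance in fragments from the rule's centre row, at 25 °C (blue) and 37 °C (orange). Grey marks the window of 12 rows to either side and the dotted line the contact peak, which lies right of the centre by 1 to 8 rows; the peak of chromosome V is narrow and those of II and XII are broad.

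The width over which a profile stayed at 50% of its highest value or more was 13 fragments on chromosome V at 25 °C, about 35.7 kb, and 34 on XII, about 93.4 kb. Chromosome II followed at 32 fragments, XI at 28 and IV at 26. XIII and VIII were narrower, at 19 and 20 fragments. The median over the 10 chromosomes was 24.5 fragments at 25 °C and 22.5 at 37 °C.

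For 2 chromosomes the width differed strongly between the maps. It was 25 fragments at 25 °C and 16 at 37 °C on chromosome X, and 34 and 23 on chromosome XII. Without the raised fragments these widths were 25 in both maps on X and 32 and 33 on XII. Raised fragments lay at rows -3, -2, 4 and 10 from the centre row on X, and at -10, -7, -3, 0 and 7 on XII. Over all 10 chromosomes the change of width ran from -11 to 3 fragments, and from -3 to 4 without the raised fragments.

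The window of chromosome II showed a dip in its 37 °C profile. The ratio over 5 rows was 4.35 at row -4, 3.11 at row 1 and 4.34 at row 6. A raised fragment lay at row 2, with a factor ratio 2.97 times the median. The 25 °C profile had a shallower dip at these rows, with 4.63 at row -1, 4.29 at row 1 and 4.63 at row 5.

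The windows were not symmetric about the rule's rows. The sum of all 10 profiles at 25 °C was 2.06 at row -12, 4.05 at row 0, 4.71 at row 4 and 3.02 at row 12. The corresponding values at 37 °C were 1.92, 3.44, 4.36 and 2.91. Chromosome XIII, whose contact peak lay farthest from the rule's row, had 1.94 left and 4.36 right of the centre at 25 °C. On its contact peak the sides stood at 3.55 and 3.29.

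Contacts between 2 windows were lower where the farther fragment lay 6 rows or more from its centre. With the rule's rows the ratio at 25 °C was 4.80 (4.67 to 4.93) up to 2 rows, 4.55 at 3 to 5 rows, 3.67 at 6 to 9 rows and 2.75 (2.71 to 2.78) at 10 to 12 rows. At 37 °C the same distances gave 3.68 (3.46 to 3.90), 3.89, 3.18 and 2.47 (2.41 to 2.53), so that 3 to 5 rows stood above 0 to 2 rows. Just inside and just outside the limit of the windows, the ratio was 2.57 at row 12 and 2.44 at row 13 at 25 °C, and 2.41 and 2.44 at 37 °C. No sharp drop thus lay at the limit of the windows in either map.

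The fall was steeper once each chromosome was centred on the contact peak of the other map. At 25 °C the ratio was then 7.33 (7.17 to 7.49) up to 2 rows, 5.69 at 3 to 5 rows, 3.28 at 6 to 9 rows and 2.58 at 10 to 12 rows. At 37 °C it was 6.57 (6.26 to 6.88), 5.21, 2.93 and 2.40. Between 21 and 30 rows, about 57.7 to 82.4 kb away, it was still 1.44 at 25 °C and 1.34 at 37 °C.

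**Figure D3:**
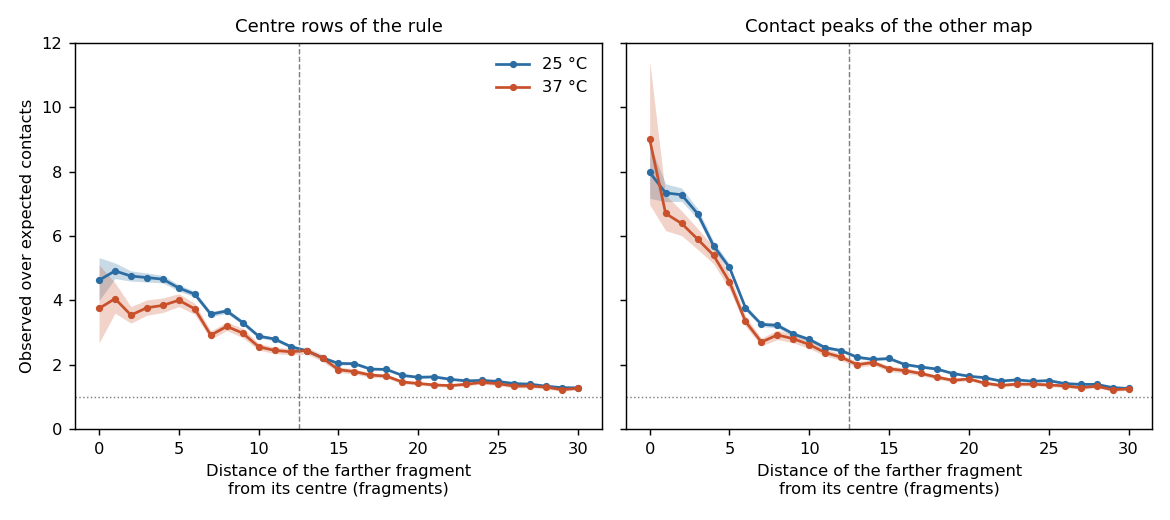
Observed over expected contacts between windows of different chromosomes against the distance in fragments of the farther fragment from its centre, at 25 °C (blue) and 37 °C (orange), with 95% counting intervals as bands; the dashed line marks the edge of the windows and the dotted line the expected level. Centred on the rule's rows (left) the curves stand at 4.92 and 4.05 at a distance of 1 fragment, and centred on the contact peaks of the other map (right) at 7.34 and 6.70; all fall toward 1.

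For pairs with both fragments within 2 rows of their centres against pairs with both 10 to 12 rows away, the fold was 1.99 (1.90 to 2.08) at 25 °C and 1.63 (1.49 to 1.78) at 37 °C. On the contact peaks of the other map these folds were 3.01 and 2.90. With centres interpolated from the gene table they were 1.32 and 1.38. The interpolated row lay outside the rule's window on chromosomes VII, XI and X, at -13, 13 and 17 rows, and within 3 rows of the rule's row on 3 of 10 chromosomes.

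Whether left arms met left arms and right arms met right arms was asked for fragments within the windows, leaving out the centre rows. With the rule's rows, contacts between arms of the same side stood at 3.78 and those between opposite sides at 3.08 at 25 °C, a fold of 1.23 (1.21 to 1.25). At 37 °C the fold was 1.20 (1.17 to 1.24). The right sides made up this difference, with 4.88 between right sides and 2.57 between left sides at 25 °C. On the contact peaks of the other map, left sides stood at 3.48, right sides at 3.35 and opposite sides at 3.49, a fold of 0.980 (0.966 to 0.994). At 37 °C it was then 0.983 (0.954 to 1.01). The excess on the same side was thus not kept once the centres were moved.

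Partners elsewhere on other chromosomes were grouped by their distance from their own contact peak. The windows of the other 6 centromeres, placed on contact peaks on chromosomes I, III, VI, XIV, XV and XVI, met the 10 windows at 3.66 (3.64 to 3.68) at 25 °C and 3.17 (3.13 to 3.20) at 37 °C. Fragments 13 to 24 rows from a contact peak stood at 1.78 and 1.62, and those 25 to 49 rows away at 1.03 in both maps. Farther out the windows had fewer contacts than the totals gave, with 0.548 and 0.651 at 50 to 99 rows and 0.276 and 0.456 at 200 rows or more. Chromosome ends, the outer 11 fragments of each arm, stood at 0.596 and 0.668. The fragment factors fix each total, so an excess with centromeres lowers the values with other partners, and these values are not independent.

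**Figure D4:**
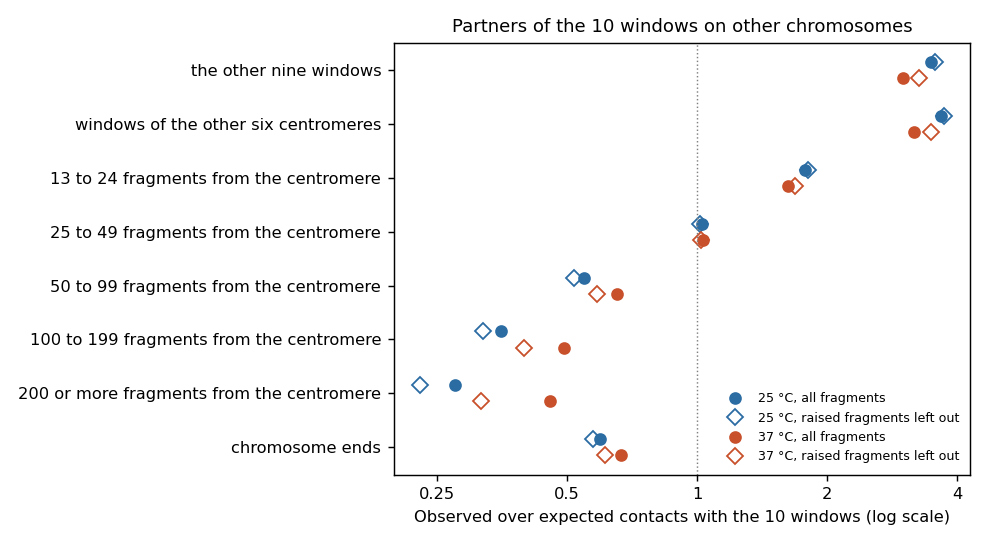
Observed over expected contacts of the 10 windows (log scale) with groups of partners on other chromosomes, in rows by the partner's distance from its own contact peak, at 25 °C (blue) and 37 °C (orange), for all fragments (dots) and without raised fragments (diamonds). Contacts fall from 3.48 with the other 9 windows to 0.276 at 200 fragments or more at 25 °C, and the 37 °C dots lie nearer to 1 in each group but that at 25 to 49 fragments, where both round to 1.03.

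At 37 °C the windows had fewer contacts with each other than at 25 °C, relative to the expected number. The log2 ratio of 37 °C over 25 °C was -0.22 (-0.24 to -0.19) over all 45 pairs. All 10 windows were lower with the other 9, with every counting interval below 0. Without the raised fragments the difference was -0.12 (-0.15 to -0.09), with ratios of 3.55 and 3.26. On the contact peaks of the other map, where the windows of the 2 maps differ in part, it was -0.15 (-0.17 to -0.13). On the peaks of the summed maps, with the same fragments in both maps, it was -0.17 (-0.19 to -0.15).

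The difference was largest on chromosome X, where ratios of 3.43 at 25 °C and 2.78 at 37 °C gave -0.31 (-0.36 to -0.26). Chromosome XII was close, at 3.71 and 3.01 or -0.30 (-0.35 to -0.25), and VII stood at -0.26. II and IV were at -0.23, XI at -0.22, IX at -0.20 and V at -0.17. The smallest differences were those of XIII, at -0.12 (-0.17 to -0.06), and VIII, at -0.11 (-0.17 to -0.05).

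This order of the chromosomes moved with the raised fragments in their windows. The windows of XII and VII held 5 each and that of X held 4, while that of VIII held 0. Over the 10 windows of these maps, the Pearson correlation of the number of raised fragments with the log2 ratio was -0.80 (Spearman -0.83). The fragment factors that define raised fragments also set the expected counts, so both sides of this relation share values. With the log2 ratio taken without the raised fragments, the correlation was -0.22 (Spearman -0.25). Without the raised fragments the log2 ratio ran only from -0.15 on XII to -0.10 on II, with an SD over chromosomes of 0.02 in place of 0.07. All 10 intervals were again below 0. Chromosome VIII, with no raised fragment in its own window, stood at -0.11 both ways.

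Within the windows, the 26 raised fragments met the other windows at 2.64 at 25 °C and 2.10 at 37 °C. The other 221 fragments stood at 3.56 and 3.24. Their median totals with other chromosomes were 2897 and 1925 contacts for raised fragments and 3050 and 662 for the others. Raised fragments were defined by totals in these same maps, and their part in the difference between temperatures was tested only by leaving them out.

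Of the 45 pairs, 44 had a lower ratio at 37 °C, and 47.3% of the tiled pairs did. The interval of the log2 ratio lay wholly below 0 for 29 of the 45 pairs, against 8.32% of tiled pairs, and wholly above 0 for 0 pairs, against 12.9% of tiled pairs. Most tiled pairs had ratios well below those of the 45 pairs, whose windows were chosen by contacts in these maps. Nothing is therefore read from the contrast with all tiled pairs. Among the 330 tiled pairs at 2 or more at 25 °C, 89.1% were lower at 37 °C and 44.2% had an interval wholly below 0. For the 81 of them not near contact peaks on both sides these shares were 86.4% and 48.1%. Without the raised fragments, 43 of 45 pairs were lower, and 10 of them had an interval wholly below 0. On the contact peaks of the summed maps 24 intervals lay below 0, on those of the other map 19, and with windows of 5 rows either side of the rule's rows 16. The shares of tiled pairs hold for the main setting only, so they are no background for the counts at these other settings.

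Most tiled pairs with a high ratio at 25 °C were lower at 37 °C too, also where the windows were not both near a contact peak. The median log2 ratio was -0.24 over the 45 pairs and 0.02 over all tiled pairs. It was -0.17 over the 330 tiled pairs at 2 or more at 25 °C. It was -0.16 for the 249 of these near contact peaks on both sides and -0.24 for the remaining 81. Of these 81 pairs, 13 had 1 window near a contact peak and 68 had neither. A choice by the 25 °C value alone favours pairs that counting error raised in that map, and the size of this effect was not measured.

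X with XII differed most between temperatures, at 3.74 (2045 contacts) and 2.63 (481 contacts), a log2 ratio of -0.51 (-0.65 to -0.36). It was -0.18 (-0.36 to 0.01) without the raised fragments. IV with XII followed at -0.41 (-0.28 without), II with X at -0.39 (-0.17 without), X with XI at -0.38 (-0.17 without) and II with XII at -0.36 (-0.14 without). Each of these 5 pairs held chromosome X or XII, whose windows held 4 and 5 raised fragments.

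The pairs that differed least were IV with VIII at 0.02 (-0.15 to 0.18), VIII with XI at -0.02, II with XIII at -0.02, IV with V at -0.05 and VIII with IX at -0.06. All 5 intervals held 0. Across the 45 pairs, the log2 ratio fell with the ratio at 25 °C (Pearson -0.54, Spearman -0.57), and the 25 °C ratio enters both sides of that relation.

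**Figure D5:**
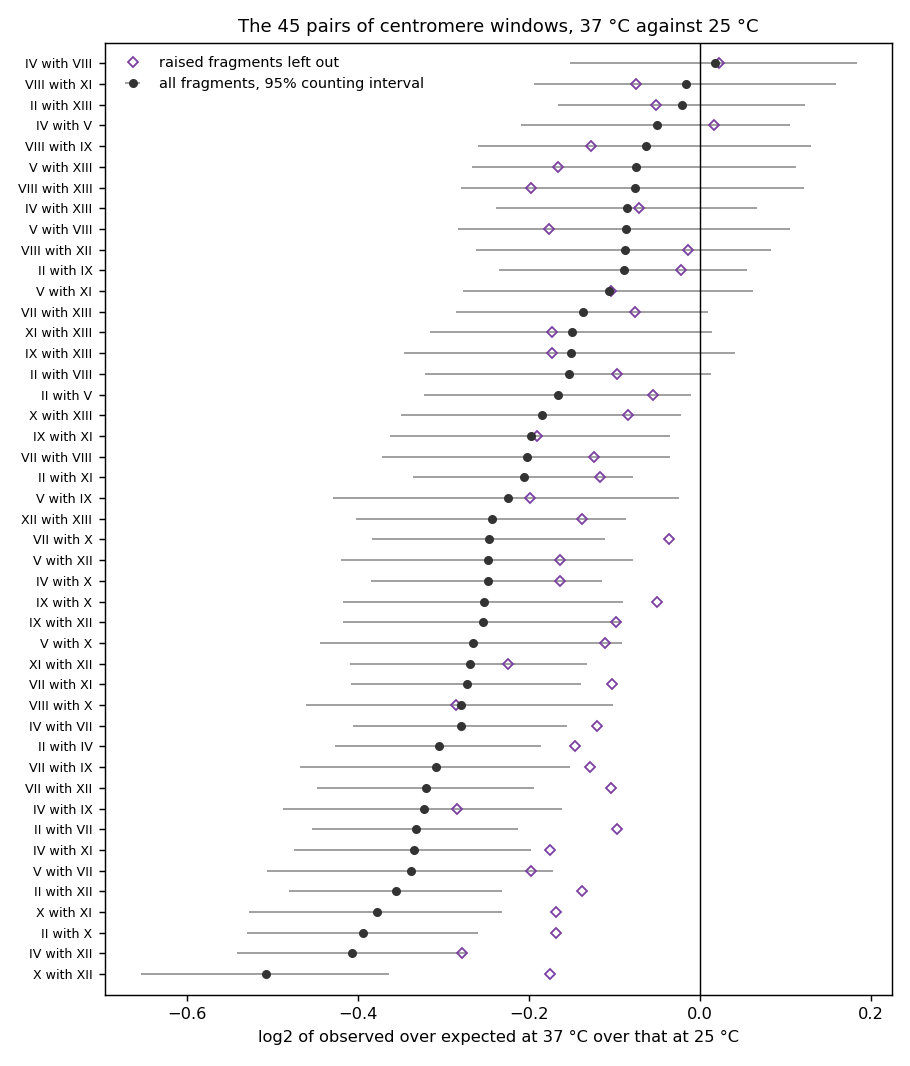
Log2 of observed over expected contacts at 37 °C over 25 °C for each of the 45 pairs of windows, ordered by value, with 95% counting intervals (dots and bars) and the value without raised fragments (diamonds). 44 of 45 dots lie below 0, and most diamonds lie nearer to 0 than their dots, with X with XII moving from -0.51 to -0.18.

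The difference could also be followed by distance. With the rule's rows the log2 ratio was -0.38 (-0.48 to -0.29) up to 2 rows, -0.23 at 3 to 5 rows, -0.21 at 6 to 9 rows and -0.15 (-0.19 to -0.11) at 10 to 12 rows. On the contact peaks of the other map it was -0.16 (-0.23 to -0.08), -0.13, -0.16 and -0.10 (-0.14 to -0.06) at these distances, whose intervals overlapped. On the peaks of the summed maps it was -0.22 (-0.30 to -0.15), -0.11, -0.18 and -0.12 (-0.16 to -0.07).

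With the other 6 centromeres the 10 windows gave a log2 ratio of -0.21 (-0.23 to -0.19), and -0.10 without the raised fragments. By chromosome it ran from -0.31 on IV to -0.00 (-0.07 to 0.06) on XIII. At 25 to 49 rows from a contact peak it was 0.01 (-0.01 to 0.03). Contacts with fragments at 200 rows or more were higher at 37 °C relative to expectation, by 0.72 (0.69 to 0.76), or 0.47 without the raised fragments.

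Contacts between the windows were spread over many pairs of fragments. Of 27453 pairs of fragments joining 2 windows, 85.3% had at least 1 contact at 25 °C, with a mean of 3.07 and a highest count of 29. When the 25 °C map was thinned at random to the 37 °C number of contacts between chromosomes, 53.0% of the pairs had a contact, against 43.5% at 37 °C. Over all 8465047 pairs between chromosomes these shares were 16.2% and 15.0%. The 1% of window pairs with most contacts held 6.71% of the contacts in the thinned map and 8.15% at 37 °C, and the highest counts were 10 and 13.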

How the data were processed

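Hi-C was done on 2 biological replicates per temperature, with 3% formaldehyde and HindIII, per the labels' protocols. The submitters' processing notes name Bowtie 1.1.0 and build R64, with any later filter not given in the sources used here. Both deposited matrices hold whole-number contact counts for pairs of restriction fragments, without names or coordinates and with a diagonal of 0, and the authors combined the replicates into 1 map per temperature.

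From these counts, 16 chromosome blocks were found in the 25 °C map by a segmentation that started from gene spans (block lengths 0.7 to 1.4 times the expected). Block sizes and spans had a Pearson correlation of 0.99. Rows of the 37 °C map were aligned by order and totals, pairing 4382 of them. The 6 and 1 unpaired rows had 11 contacts or fewer. Log totals of paired rows had a Pearson correlation of 0.81, and the alignment itself used these totals. At the 10 centre rows the 37 °C row lay 1 to 6 rows earlier. Contacts within chromosomes were left out of all ratios, since patches near the diagonal hold no counts. They did enter the segmentation, the alignment of rows and the totals used by the filter.

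The lowest 2% of fragments by total in either map were left out. Factors were fitted by iterative proportional fitting (200 rounds). Ratios have exact Poisson intervals, and shares and ratios between maps have exact binomial (Clopper-Pearson) ones. Reads without molecular identifiers are not independent molecules, so intervals cover counting error only. Windows, chromosomes, pairs and groups were chosen with earlier results of these data known. Named pairs are the 5 highest and 5 lowest in each map and in the log2 ratio, and named genes are the nearest on each side of each centromere. The ratios, their intervals and the search for contact peaks were tested on simulated maps with Poisson counts. The segmentation, the alignment of rows, the filter and the naming of raised fragments were not tested in this way. Python 3.11.15, numpy 2.4.6, scipy 1.17.1, pandas 2.3.3 and matplotlib 3.10.9 were used.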

Additional observations from a re-analysis of the deposited data

How the results depend on the processing

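The alternatives on contact peaks and in the row numbering of the 37 °C map were chosen after seeing the data. The log2 ratio between the windows stayed below 0 under all 13 alternatives (-0.38 to -0.12), and the ratio stayed above 1 in both maps. In each sentence the ratios at 25 °C and 37 °C come first, then the log2 ratio and the pairs with an interval below 0. The inner over outer folds and the same-side over opposite-side folds follow. The number of pairs, 29 at the main setting, is given each time, without a share of tiled pairs at the same setting. Other values are given only where they moved out of the counting interval of the main setting. Without fragment factors they were 4.99, 3.83, -0.38, 43 pairs and, for the inner fold at 25 °C, 2.46. Windows of 7 rows gave 4.28, 3.56, -0.27, 28 pairs and a same-side fold of 1.25 at 25 °C. Windows of 5 rows gave 4.61, 3.84, -0.26, 16 pairs and same-side folds of 1.21 and 1.14. A cap of 5 contacts per pair of fragments gave 3.30 at 25 °C, -0.14 and 22 pairs. At 25 °C it also gave an inner fold of 1.79 and a same-side fold of 1.12. Leaving out raised fragments gave 3.55, 3.26, -0.12, 10 pairs and an inner fold of 1.82 at 37 °C. Interpolated centres gave 3.04, 2.65, 22 pairs, inner folds of 1.32 and 1.38 and same-side folds of 0.944 and 0.921. Contact peaks of the summed maps gave 3.61, 3.21, -0.17, 24 pairs, 3.09, 2.76, 0.997 and 0.977. Those of the other map gave 3.56, 3.21, -0.15, 19 pairs, 3.01, 2.90, 0.980 and 0.983. Rule rows read as rows of the 37 °C map gave 3.60, 3.14, 27 pairs, inner folds of 3.02 and 2.77 and same-side folds of 1.01 and 1.02. Contact peaks without raised fragments gave 3.60, 3.32, -0.12, 12 pairs, 3.04, 2.73, 1.00 and 0.988. Without a filter, with the lowest 5% left out or with the 25 °C map thinned, every ratio and fold stayed within its counting interval. The pairs then numbered 29, 30 and 24. Fewer counts per pair widen the intervals of the thinned map and of narrow windows. The cause of the other moves was not tested.

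No paired analysis was possible because the replicates are combined in 1 map per temperature, so leaving out a replicate was not run. Depth limits the 37 °C pairs to 239 to 713 contacts, and differences of 0.1 on the log2 scale in single pairs were not detectable there.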
